A study of Mus musculus with 8 samples.

Results

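The sequences described here are those to which the authors' deposited table gives the name of a long noncoding RNA as their annotation: H19, G90, Nesp-as, Msx1-AS, bic, terc, RPRH, or LIT followed by digits. Choosing the rows by these names gave 320 distinct sequences of 6246223 in all (0.00512%), under 33 names, of which 26 were LIT names. Small RNA of 19 to 33 nt had been isolated from mouse testes, ligated to linkers and amplified by PCR. The labels describe Tdrd6 knockout mice, heterozygous or homozygous, at 18 and 25 days after birth and at 6 weeks, and heterozygous or homozygous Tdrd1 knockout embryos at 18.5 days after conception. There was 1 library in each of these 8 groups, and every library carried at least 1 knockout allele. The table pools the series: none of its 3 columns belongs to a library (0 of 3), and it holds no read number, so the depth is unknown and no genotype or age could be compared. The values below therefore count different sequences, however often each was read, and none measures how abundant an RNA was.

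Long noncoding RNAs are transcripts without a long reading frame. Some act as part of an enzyme, such as the telomerase RNA, which carries the template for telomere repeats, and several are made from only the maternal or only the paternal chromosome (imprinting). In the testis, piRNAs are small RNAs bound by Piwi proteins. They are cut from long single-stranded precursors, repeats, mRNAs and noncoding RNAs among them, and most begin with uridine, read as T in a DNA table. Where a second piRNA is made by slicing opposite the first, the pair overlaps by 10 nt at the 5' ends and the second tends to carry A at position 10. Tdrd1 and Tdrd6 are Tudor domain proteins that bind methylated arginines of Piwi proteins. Sequences of 24 to 33 nt are called piRNA-length below, by length alone.

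The names were placed on genes by exact matching of each sequence to GENCODE mouse transcripts (GRCm38), and 20 names found a gene while 13 did not. Introns were not searched. The sequences below are examples, since without read numbers no form can be called the main one. For the 3 names with at least 20 piRNA-length sequences that could be placed, the sequences with the most repeated 5' end are given first, with capitals for the bases beyond the shortest form. The terc sequences lie at chr3:96414574-96414602 (minus strand, the extent of the longest), the LIT1629 sequences lie at chr7:143295583-143295608 (plus strand, opposite Kcnq1ot1) and the H19 sequences at chr7:142575738-142575764 (minus strand).
terc, 24 nt: taggactccgctgccgccgcgaag
terc, 25 nt: taggactccgctgccgccgcgaagA
terc, 27 nt: taggactccgctgccgccgcgaagAGC
terc, 29 nt: taggactccgctgccgccgcgaagAGCTC
LIT1629, 25 nt: tacgagaactgagccacggccgtga
LIT1629, 26 nt: tacgagaactgagccacggccgtgaA
H19, 26 nt: tatacagcgagtgtgtaaacctcttt
H19, 27 nt: tatacagcgagtgtgtaaacctctttG

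Within each name the forms share their 5' end because they were chosen by it, so they can differ only at the 3' end. All 8 begin with T, but forms with a shared 5' end have the same first base, so the forms of a name are not separate observations of it. T was first in 61.4% of the terc, 92.7% of the LIT1629 and 50% of the H19 sequences of piRNA length. Other sequences, chosen after the values were seen, are printed beside the results they belong to.

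The 320 sequences ran from 15 to 35 nt, and 226 of them (70.6%, 95% interval 65.3 to 75.6) were piRNA-length. The intervals given here are exact (Clopper-Pearson) and cover counting error only, since overlapping fragments of 1 transcript are not independent molecules. A further 63 sequences had 19 to 23 nt, 29 were shorter than 19 nt and 2 were longer than 33 nt. The most frequent lengths were 26 nt with 60 sequences and 27 nt with 56. Of all sequences in the table, 78.2% were piRNA-length. The share was 83.6% for mRNA, 78.1% for unannotated sequences, 77.1% for repeats, 47.4% for ribosomal RNA and 46.2% for transfer RNA. Lengths of 29 to 31 nt made up 14.6% of the piRNA-length sequences with these names (10.3 to 19.9), 20.7% of those annotated to mRNA and 28.7% over the whole table. The share of piRNA length for the names thus lay above ribosomal and transfer RNA and below the other classes given. LIT3347, with 15 of its 47 sequences of piRNA length, lowered it. The names also had few of the longer piRNA-length sequences.

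Sequences were spread very unevenly over the names. The 4 names with most, terc, LIT1629, LIT3347 and H19, held 182 of the 320 (56.9%). At the other end, 21 names had at most 5 sequences, 7 names had 1, and 4 names had none of piRNA length.

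**Figure D1:**
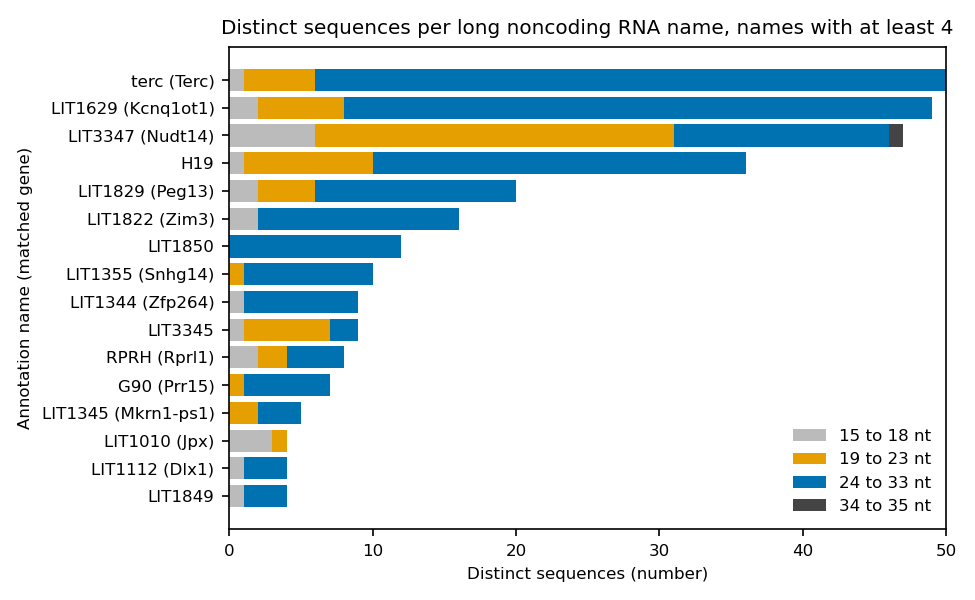
The number of distinct sequences (horizontal axis) is shown for each name with at least 4 sequences (vertical axis, with the matched gene), and the colours divide each bar by length. The sequences of terc (50), LIT1629 (49) and H19 (36) were mostly of 24 to 33 nt, while 25 of the 47 LIT3347 sequences had 19 to 23 nt.

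T was the first base of 166 of the 226 piRNA-length sequences (73.5%, 67.2 to 79.1). A was first in 25 (11.1%), G in 23 (10.2%) and C in 12 (5.31%). The shares with T first were 71.2% over all piRNA-length sequences of the table, 78.4% for mRNA, 69.4% for unannotated sequences, 71.3% for repeats, 31.1% for ribosomal RNA and 31.6% for transfer RNA. The members as a whole were thus close to the table and far above ribosomal and transfer RNA. Among shorter members, T was first in 19 of 63 sequences of 19 to 23 nt (30.2%, 19.2 to 43.0). At 15 to 18 nt it was first in 8 of 29 (27.6%, 12.7 to 47.2). The shares of the whole table at these lengths were not computed, so whether the members differ from it there is unknown. Of the 63, 25 were overlapping LIT3347 sequences. Within the piRNA-length range the share changed little, with 112 of 148 at 25 to 27 nt (75.7%), 21 of 28 at 28 nt (75.0%) and 26 of 33 at 29 to 31 nt (78.8%).

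**Figure D2:**
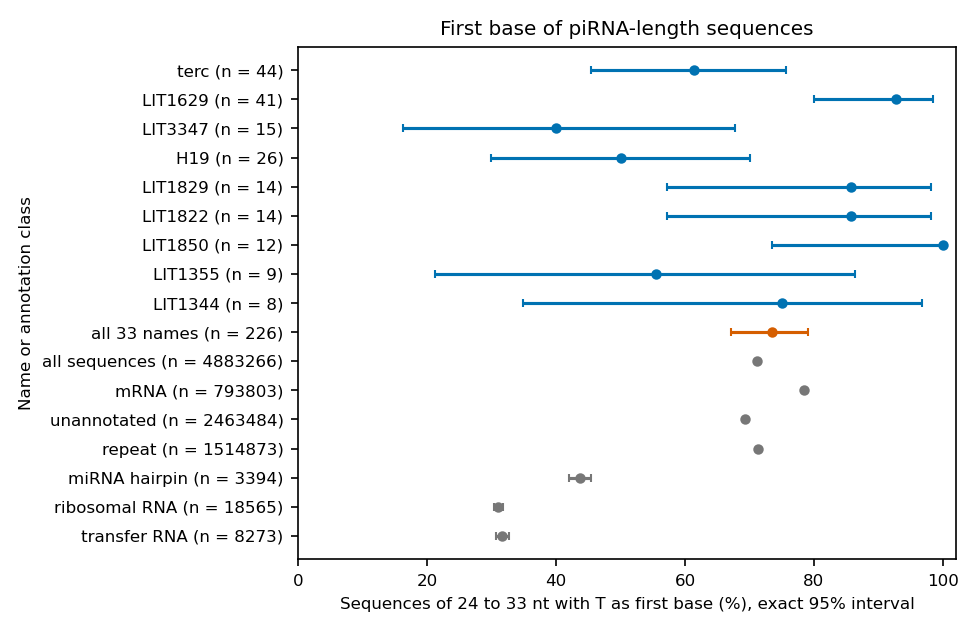
The share of piRNA-length sequences with T as first base (horizontal axis, percent, with exact 95% intervals) is shown for each name with at least 8 such sequences (blue), for all 33 names together (orange) and for annotation classes of the table (grey). LIT1629 (92.7%) and LIT1850 (100%) lie at the right, while terc (61.4%), H19 (50%) and LIT3347 (40.0%) lie between the ribosomal RNA class and the whole table.

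A at position 10 was found in 49 of the 226 (21.7%, 16.5 to 27.6). The whole table had 30.7%, mRNA 25.8%, unannotated sequences 28.5%, repeats 36.5% and transfer RNA 16.0%. The interval for the names lies below the values of the whole table, of unannotated sequences and of repeats, lies above that of transfer RNA, and includes those of mRNA and of ribosomal RNA (25.4%). At 25 to 32 nt, an interval of 17.7 to 29.5 no longer lies below the value of unannotated sequences. On the matched transcripts, 43 pairs of a sense and an antisense sequence of the same name, of any length, shared at least 1 position, in 5 names. Of these pairs, 0 overlapped by 10 nt at the 5' ends. They are not 43 separate chances for such an overlap. The 2 antisense sequences of terc gave 27 pairs and the 1 of LIT3347 gave 7, and some partners were shorter than piRNA length.

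Of the 320 sequences, 179 matched a transcript of the gene assigned to their name on its own strand and 41 on the opposite strand. A further 4 matched only other genes in sense, 4 lay on the opposite strand in a RefSeq promoter window (250 bases before to 50 after the start) and 92 matched nothing searched. Among piRNA-length sequences that matched the assigned gene, 138 of 167 were sense (82.6%, 76.0 to 88.1). LIT1629 alone held 20 of the 29 antisense sequences. Without it the sense share was 93.5%.

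Names matched to imprinted genes made up a large part of the set, a grouping made after the values were seen. The 8 names H19, LIT1629, LIT1829, LIT1822, LIT1344, LIT1355, LIT1678 and Nesp-as held 144 of the 320 sequences. Of these, 116 were piRNA-length and 89 of those began with T (76.7%, 68.0 to 84.1). This interval includes the 71.2% of the whole table and the 73.5% of all 33 names. The placed sequences of LIT1355 and LIT1678 all map to several positions (up to 25 and 20), so their gene is less certain. The 8 names differed from one another in strand, length and first base.

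LIT1629 fell on Kcnq1ot1, a paternally expressed RNA read from within the Kcnq1 gene in the opposite direction, which keeps neighbouring imprinted genes silent (chr7:143203458-143296549, minus strand, 93092 nt). It had 49 sequences, 41 of piRNA length, with 26 nt the most frequent length. T was first in 38 of the 41 (92.7%, 80.1 to 98.5), so this interval does not overlap those of terc and H19. Of the 49, 11 lay on the strand of Kcnq1ot1 and 24 on the opposite strand within the transcript. Another 2 lay on the opposite strand in the promoter window of Kcnq1ot1 and 3 matched the plus strand gene Gm37364, which makes 29 on the plus strand, and 9 could not be placed. First bases were alike on both strands: 9 of 9 piRNA-length sequences on the Kcnq1ot1 strand and 21 of 24 on the plus strand began with T.

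The 35 LIT1629 sequences within the long transcript lay between its positions 16 and 2285. Over the whole table, piRNA-length sequences that map to 1 position were found in 10 sense and 20 antisense forms in the first 2500 nt of Kcnq1ot1, a boundary chosen after the positions were seen. In the remaining 90592 nt there were 40 sense and 8 antisense sequences. None of these 48 carried the LIT1629 name: 39 were annotated to Kcnq1 mRNA and 9 to repeats. Within the transcript, the LIT1629 sequences thus lay near its start, where antisense sequences outnumbered sense ones, and the rest of the transcript showed the opposite balance. LIT1629 had 6 overlapping sense and antisense pairs. The pair with most shared positions is printed with the paired bases in capitals (sense chr7:143296039-143296056, antisense chr7:143296034-143296060).
LIT1629 sense, 18 nt: TCACTTCCGTGTGGATCG
LIT1629 antisense, 27 nt: tgaaaCGATCCACACGGAAGTGAccca

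The sense partner is shorter than piRNA length, and its 18 bases are all covered by the antisense partner.

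H19 is a maternally expressed RNA and the host of miR-675 (chr7:142575529-142578143, minus strand). All 36 H19 sequences mapped to 1 position, 35 matched H19 in sense, 0 in antisense and 1 was unmatched. They ran from position 19 to 2136 of the transcript of 2286 nt and covered 640 nt of it. Of the 36, 26 were piRNA-length, with 27 nt the most frequent length (9 sequences). T was first in 13 of the 26 (50%, 29.9 to 70.1), A in 6, G in 5 and C in 2. H19 sequences were thus spread along the exons on 1 strand and their interval for T first lies just below the value of the whole table.

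The miRNA of H19 was annotated apart. The table held 22 sequences named mmu-mir-675, of which 16 had 19 to 23 nt and 1 was piRNA-length. None of the 320 sequences lay inside any of the 1005 RefSeq mouse hairpins. The mature miRNAs, from RefSeq (GRCm38.p6), are shown with the seed, bases 2 to 8, in capitals, to set them beside the H19 sequences above.
mmu-miR-675-5p: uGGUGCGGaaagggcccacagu
mmu-miR-675-3p: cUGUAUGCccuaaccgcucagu

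The arms have different seeds, and both are shorter than the H19 forms printed earlier.

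LIT1829 fell on Peg13, a paternally expressed RNA made from an intron of Trappc9 (chr15:72805600-72810324, minus strand, 4725 nt). All 20 sequences were sense and mapped to 1 position, between positions 8 and 3391. Of these, 14 were piRNA-length and 12 of the 14 began with T (85.7%, 57.2 to 98.2). The 5' end with more than 1 sequence lies at position 718 (chr15:72809581-72809607), and its forms are printed with the first base in capitals.
LIT1829, 26 nt: Taccttcgagcgttgagataccttcg
LIT1829, 27 nt: Taccttcgagcgttgagataccttcga

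As in terc, LIT1629 and H19, the forms were chosen by a shared 5' end, so they can differ at the 3' end only.

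LIT1822 fell on Zim3, an imprinted gene read in the opposite direction to Usp29 and overlapping it (chr7:6955685-6977420, minus strand). It had 16 sequences, 12 sense to Zim3 and 4 antisense. The 12 sense sequences were all piRNA-length, 11 began with T, 8 had 29 to 31 nt and the most frequent length was 29 nt (mean 28.5 nt). Over the whole table, 71.2% of piRNA-length sequences began with T and 28.7% had 29 to 31 nt. The antisense sequences of piRNA length numbered 2, both of 27 nt. LIT1822 thus had longer sequences than LIT1829 and H19, whose means in sense were 26.6 and 26.5 nt. A at position 10 was found in 7 of its 14 piRNA-length sequences (50%, 23.04 to 76.96). This interval includes the 30.7% of the whole table, so a difference was not detectable at this number of sequences. One pair overlapped across strands, by 22 bases at the 5' ends (sense chr7:6961816-6961844, antisense chr7:6961823-6961849), and the paired bases are in capitals.
LIT1822 sense, 29 nt: TGCTACGCTTTTCTTGTTCTCTtaaggtc
LIT1822 antisense, 27 nt: AGAGAACAAGAAAAGCGTAGCAattgg

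The sense partner begins with T and the antisense partner with A.

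LIT1344 fell on Zfp264, a gene of the zinc finger family beside Zim3 in the same imprinted region, typed by GENCODE as a transcribed pseudogene (chr7:6977246-6991087, plus strand). It had 9 sequences, 8 of them sense and piRNA-length, and 6 of the 8 began with T. Of these 8, 4 mapped to more than 1 position (largest map number 9), so their source is uncertain. LIT1355 matched Snhg14, the long host RNA of snoRNAs in the Prader-Willi region, and its 10 sequences were mostly repeated in the genome, with 1 mapping to 1 position and a largest map number of 25. Of its 9 piRNA-length sequences 5 began with T. The 6 placed LIT1355 sequences were sense, whereas the 1 placed sequence of LIT1678 was antisense to the same gene. Over the whole table, the piRNA-length sequences that map to 1 position showed another picture at Snhg14: 2 were sense and 161 antisense, none carried a LIT name, 128 had no annotation, and 93 of the 163 had 29 to 31 nt.

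Nesp-as is named for the transcript opposite Nesp at the imprinted Gnas locus. Both of its sequences had 27 nt and were antisense to Nespas, that is on the strand from which Gnas is read. They lie 1 base apart (chr2:174285348-174285375, plus strand).
Nesp-as, first: Tgcaagaccaggaggccagcccgccgt
Nesp-as, second: Ctgcaagaccaggaggccagcccgccg

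The name of this annotation and the strand of its sequences thus differ.

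**Figure D3:**
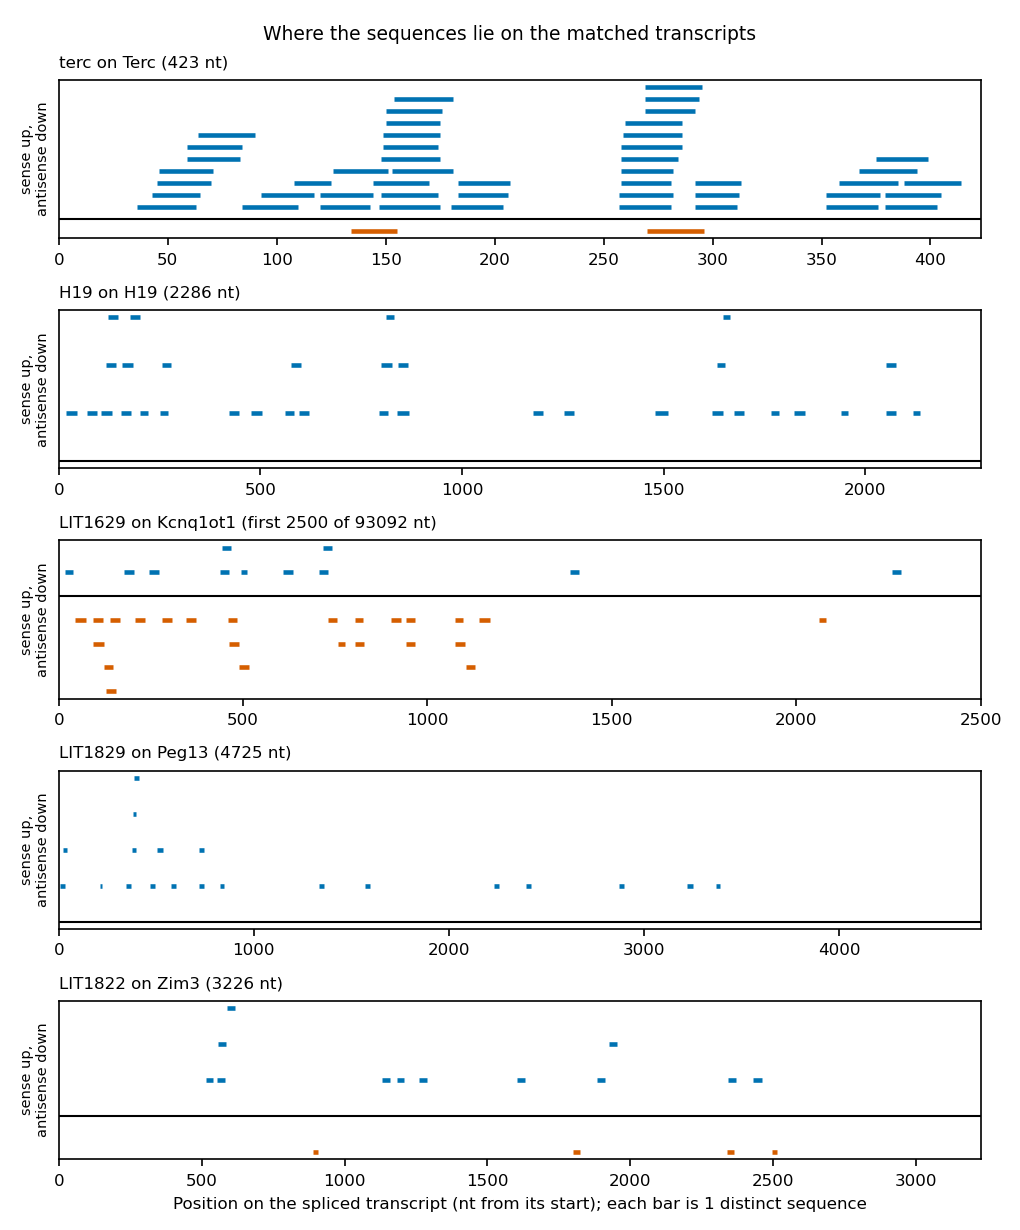
Each bar is 1 distinct sequence, drawn at its position on the spliced transcript (horizontal axis, nt from the transcript start), above the line where it is sense and below it where it is antisense, and stacked bars overlap in position. The terc sequences pile up in a few stretches of Terc, the LIT1629 sequences lie on both strands of the first 2500 nt of Kcnq1ot1, and those of H19 and LIT1829 are scattered on the sense strand only.

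The telomerase RNA, terc, had the most sequences of any name. All 50 matched Terc (chr3:96414437-96414859, minus strand, 423 nt), 48 in sense and 2 in antisense, and every sequence of the table that matched Terc carried this name. They covered 69.03% of the RNA, from position 36 to 414, and 49 of the 50 overlapped another by at least 12 nt. The 50 sequences had 34 different 5' ends and 41 different 3' ends (each defined by 15 nt), with at most 4 sequences on 1 5' end, the group printed above. Of the 50, 44 were piRNA-length, and 27 nt was the most frequent length with 12 sequences. T was first in 27 of the 44 (61.4%, 45.5 to 75.6) and G in 10. This interval includes the 71.2% of the whole table, so a difference was not detectable at this number of sequences.

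Telomerase copies the telomere repeat from a template stretch of this RNA. The letters CTAACCCT, part of that stretch, occur once in Terc, at positions 29 to 36. The sense sequence nearest the start of Terc begins at position 36 and shares 1 base with these letters, shown as a capital (chr3:96414797-96414824). No other terc sequence shared a base with them. The antisense sequences, at chr3:96414705-96414726 and chr3:96414564-96414590, follow it with their first base in capitals.
terc, first in position: Tgattttcattagctgtgggttctggtc
terc antisense, 22 nt: Tgaggctcgggaacgcgcggtg
terc antisense, 27 nt: Tgacagaggcgagctcttcgcggcggc

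Both antisense sequences lie opposite stretches where sense sequences pile up, and they account for 27 of the 43 overlapping pairs across strands.

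RPRH sequences matched Rprl1 (chr6:69326937-69327174, minus strand), a gene of the family related to the RNA of RNase P, the enzyme that trims the 5' end of transfer RNA precursors. There were 8, of which 4 were piRNA-length and 3 of these began with T. On Rprl1, 6 were sense and 1 antisense, and the last, of 15 nt, matched Ccnb1ip1, Rpph1 and Rprl2 in sense. In all, 4 of the 8 matched Rpph1, the RNA of RNase P itself. Some of these genes are near copies of one another, so which copy a sequence came from is uncertain: 4 of the 8 mapped to 1 position.

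bic is the host transcript of miR-155, a miRNA of immune cells. Its only sequence had 25 nt, began with C and lay in Mir155hg from position 735 to 759 (chr16:84714618-84714642, plus strand), outside the hairpin. The table held 24 sequences named mmu-mir-155, 12 of 19 to 23 nt and 6 of piRNA length. The sequence of bic and the mature miRNAs from RefSeq are printed together, with the first base and the seeds in capitals.
bic, 25 nt: Cttgtaagacttggaattggcattt
mmu-miR-155-5p: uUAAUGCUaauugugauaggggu
mmu-miR-155-3p: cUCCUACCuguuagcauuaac

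The bic sequence lies downstream of both arms in the gene.

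**Figure D4:**
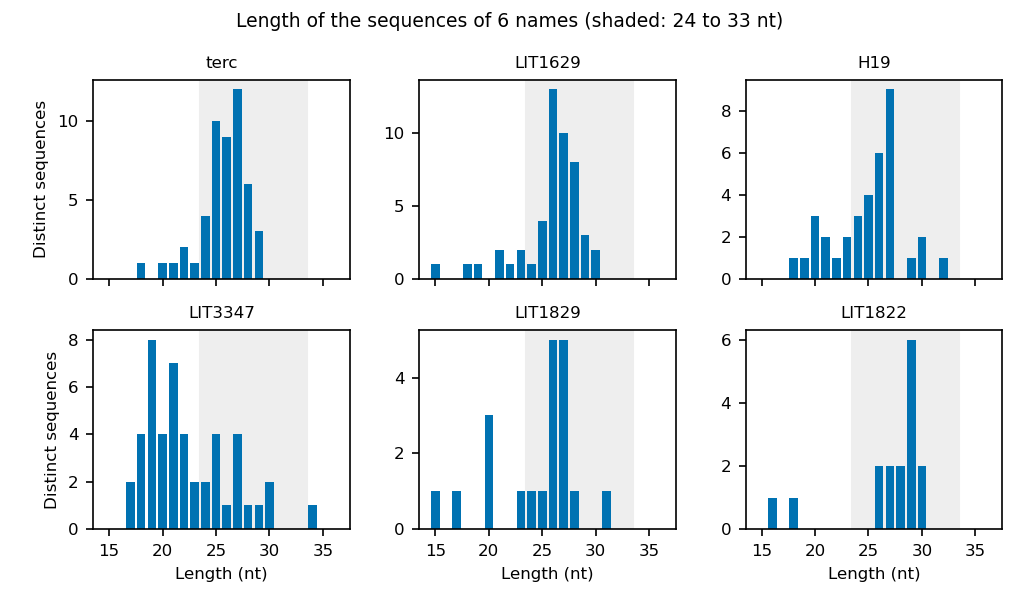
The number of distinct sequences (vertical axis) is plotted against length in nt (horizontal axis) for 6 names, with 24 to 33 nt shaded. The modes of terc (27 nt), LIT1629 (26 nt) and H19 (27 nt) fall in the shaded range, that of LIT1822 lies higher (29 nt), and most LIT3347 sequences are to its left.

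LIT3347 differed from the other large names in length. Of its 47 sequences 25 had 19 to 23 nt, 6 were shorter than 19 nt and 1 was longer than 33 nt. The 15 piRNA-length sequences included 6 that began with T (40.0%, 16.3 to 67.7). Only 2 mapped to 1 position, and the largest map number was 8. A part, 8 sequences, matched the gene of a nucleotide hydrolase, Nudt14, 7 in sense and 1 in antisense, all within positions 1086 to 1121 of its transcript, and 39 matched nothing searched. All 47 overlapped another by at least 12 nt, in 258 pairs on the same strand and 19 on opposite strands. Joined by these overlaps, 31 of them made a stretch of 73 nt, 29 on one strand and 2 on the other. LIT3347 was thus a name for many overlapping forms, most of which map to several positions. LIT3345, for which no match was found, had 9 sequences of which 6 had 19 to 23 nt and 2 were piRNA-length.

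LIT1850 was the opposite in first base. Its 12 sequences were all piRNA-length (25 to 29 nt), all mapped to 1 position and all began with T (100%, 73.5 to 100). None had A at position 10 (0 of 12, 0 to 26.5), where the whole table had 30.7%. No match was found, and 9 of the 12 overlapped another, in 7 pairs on the same strand. The other LIT name with 4 sequences and no match, LIT1849, had 3 of piRNA length, all with T first.

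Among the remaining names, G90 matched Prr15 (chr6:54325835-54330201, plus strand), for which RefSeq lists G90 as a synonym. GENCODE types Prr15 as protein coding, although the name was taken here as that of a noncoding RNA. All 7 sequences were sense and mapped to 1 position. Of these, 6 were piRNA-length and 4 of the 6 began with T. The sequence nearest the start of the transcript lies at chr6:54329153-54329179.
G90, 27 nt: Tgggagaagcctggaagggctggagtg

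LIT1345 matched Mkrn1-ps1, a pseudogene of Mkrn1, in 5 sequences. None mapped to 1 position, so the pseudogene and its parent gene cannot be told apart, and all 3 of piRNA length began with T. LIT1112 matched Dlx1, a homeobox gene that GENCODE types as protein coding, with 3 sense and 1 antisense sequences. LIT1314 matched Snhg3, a snoRNA host gene, with 3 sense sequences of 28 to 31 nt, all with T first. LIT1010 fell on Jpx, an RNA that activates Xist on the X chromosome, and none of its 4 sequences was piRNA-length. The 16 LIT names outside the 10 with most piRNA-length sequences had 40 sequences in all, from 1 to 9 each. Of these, 20 were piRNA-length and 17 of the 20 began with T. The only sequence of Msx1-AS had 28 nt, began with T and could not be placed.

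To set the names beside other noncoding RNAs, 25 genes were searched in the whole table, counting only piRNA-length sequences that map to 1 position. Of the 25, 24 had at least 1 such sequence. Airn had none, but its longest annotated transcript has only 1375 nt and introns were not searched. Summed over the genes, 2281 were sense and 177 antisense. A sequence that matched more than 1 gene was counted at each, so these sums need not be numbers of distinct sequences. Of the 2458 counted, only 113 carried 1 of the 33 names, while 1427 had no annotation. The names thus mark a small part of the sequences counted, but most of the 25 genes are not matched to any of the names. The share therefore depends on which genes were listed. At genes with a name, it was carried by 42 of 42 sequences at Terc, 14 of 14 at Peg13 and 25 of 26 at H19. The counts were 29 of 78 at Kcnq1ot1, 2 of 5 at Nespas, 1 of 10 at Mir155hg and 0 of 3 at Jpx. Many sequences carried other annotations, outside the names, mRNA, repeats and miRNA hairpins. These were 219 of 238 at Rmrp, 223 of 272 at Snhg1 and 202 of 277 at Gas5. T was first in 42.9%, 51.5% and 35.4% of the sequences at these genes, and in 26.2% at Rpph1. At Neat1 and Meg3 the share was 80.4% and 86.0%. Antisense sequences outnumbered sense ones at 2 genes, Miat (13 sense, 20 antisense) and Tsix (1 and 4), and 10 of the 24 had no antisense sequence. Whether the Tsix sequences were also among those counted at Xist (8 sense, 1 antisense) was not checked.

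Counts need the length of the transcript to be compared. Sequences were counted over all annotated transcripts of a gene and divided by the length of its longest one. For a gene with several transcripts the value is therefore only a rough scale, not a density on that transcript. Terc had 42 piRNA-length sequences that map to 1 position, or 99.3 per kb. All 42 carried the name terc. The other small enzyme RNAs had more per kb: Rpph1, the RNA of RNase P, had 335.4 (107 sequences), and Rmrp, the RNA of RNase MRP, had 847.0 (238 sequences). None of these piRNA-length sequences at Rpph1 or Rmrp carried 1 of the names. H19 had 11.4 per kb, Peg13 3.0 and Kcnq1ot1 0.838. The value of Kcnq1ot1 is taken over 93092 nt, while 10 sense and 20 antisense of its 78 sequences lay in the first 2500 nt. RNAs without a name lay on both sides of these values. Neat1, which builds paraspeckles, had 34.2 per kb with 630 sense and 80 antisense sequences, and Malat1 had 21.2 per kb with 147 and 1. Meg3, the imprinted RNA of another cluster, had 7.35 per kb, Miat 3.6, Tsix 1.16 and Xist, the RNA that silences an X chromosome, 0.502.

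**Figure D5:**
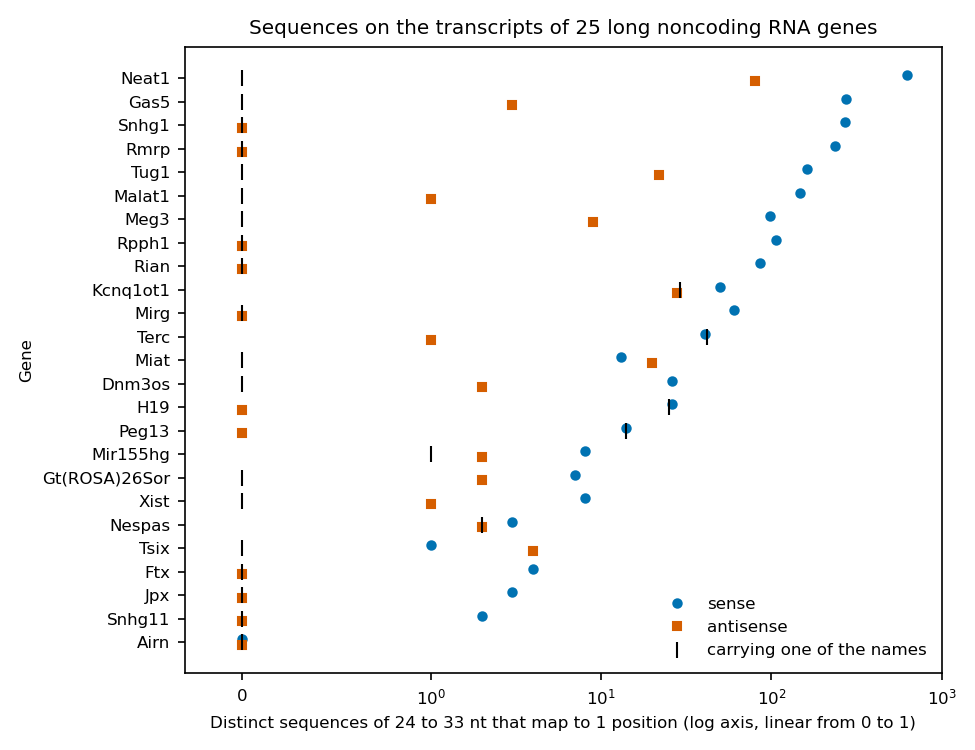
For each of 25 noncoding RNA genes (vertical axis), the number of distinct piRNA-length sequences that map to 1 position is shown for the sense strand (blue circles), the antisense strand (orange squares) and those carrying 1 of the 33 names (black bars), on a log axis that is linear from 0 to 1. At Terc, H19 and Peg13 nearly all sequences carry a name, at Kcnq1ot1 29 of 78 do, and at Neat1 (710 sequences) none does.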

How the data were processed

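The authors deposited 1 table for the series; per the file headers it holds a distinct sequence, its map number (the number of positions it maps to) and a final annotation. Aligner, genome build and the key to the LIT names are not given in the sources used here. The comparison of homozygous with heterozygous libraries that the labels imply was not made, since no column belongs to a library, and no test was run. Members and gene lists were chosen with earlier results of these data known.

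Sequences were matched exactly, on both strands, to GENCODE transcripts (GRCm38), RefSeq promoter windows and RefSeq miRNA hairpins. No genome was used. A name was given the gene with most matches on either strand. Ties went to genes that are not protein coding, then to the gene with more sense matches. A sequence that matched its gene on both strands was counted as sense. The matching was run on simulated data: 1000 of 1000 transcript fragments were found and 0 of 1000 random sequences. An exact search must find exact fragments of the transcripts it searches, so the first value shows only that the search worked. Chance matches were not measured separately for the 29 sequences shorter than 19 nt. The second value is therefore no measure of chance matches among them, and their placement is less certain. Of the LIT names, the 10 with most sequences of 24 to 33 nt were to be described singly, with ties in order of name, and LIT3345, LIT1849, LIT1678 and LIT1010 were added after their values were seen. Intervals are Clopper-Pearson at 95% (Python 3.11.15, SciPy 1.17.1; figures with matplotlib 3.10.9). Alternatives were 25 to 32 nt, all lengths, map number 1, each 5' end once, names compared without case, no sequences inside hairpins, and leaving out terc or, chosen after seeing the data, LIT1629.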

Additional observations from a re-analysis of the deposited data

How the results depend on the processing

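Counting all lengths lowered the share of sequences with T first from 73.45% to 60.31%, and leaving out LIT1629, an alternative chosen after seeing the data, raised the sense share from 82.63% to 93.48%. The other settings moved the share with T first to between 69.19% and 76.37%, the share with A at position 10 to between 21.43% and 23.22%, and the sense share to between 77.24% and 81.36%. The number of sequences, 226, ran from 190 (map number 1) to 320 (all lengths). No paired analysis was possible because no column of the table belongs to a library. Read numbers, strand and coordinates are not in the table, and no genome was used, so abundance, introns and the positions of names without a transcript match were not analysed here.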

Other observations

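At Rpph1 and Rmrp, part of the sequences bore miRNA hairpin names. Of the 190 sequences of any length on Rpph1, the RNA of RNase P, 68 were annotated as mmu-mir-685, and of the 352 on Rmrp, the RNA of RNase MRP, 24 were annotated as mmu-mir-699.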
